A study of Homo sapiens with 9 samples.

Results

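The proteasome genes of MDA-MB-231 cells were followed in a control culture and in cultures with a stable knockdown of *ELOVL5*, an elongase of polyunsaturated fatty acids, or of *IGFBP6*, a secreted binding protein of insulin-like growth factors. MDA-MB-231 is an established breast cancer cell line without estrogen and progesterone receptors. The members are the genes of the PSMA to PSMG families, taken as every transcript cluster (the unit the array measures) whose single gene symbol is PSM, a letter from A to G and a number, with the transcript cluster of the highest mean standing for a gene that has several. This rule gave 45 genes of the 22465 with a single symbol, and it used no difference between cultures. Further genes of these families were not analysed here. All 3 cultures carried the lentiviral vector pLVX-shRNA1 and were selected with puromycin: the control, LUC, expressed a shRNA to firefly luciferase, and the other cultures a shRNA to *ELOVL5* or to *IGFBP6*. Each group was 1 stable culture sampled by 3 RNA preparations, one Affymetrix Human Transcriptome Array 2.0 per preparation, so p-values measure the spread between preparations, and a property of a culture cannot be told apart from the knockdown it carries. Values are log2 intensities, in which a difference of 1 is a doubling, and they are compared between arrays for the same gene only.

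The proteasome is the protease of the cytosol and nucleus that degrades proteins marked with ubiquitin. Its 20S core is a barrel of alpha and beta subunits, of which 3 beta subunits cut peptide bonds, and the 19S cap, built of ATPases and non-ATPase subunits, receives, unfolds and deubiquitinates the substrate. Under interferon gamma, and constitutively in many immune cells, the catalytic subunits of PSMB5, PSMB6 and PSMB7 are replaced in new particles by those of *PSMB8*, *PSMB9* and *PSMB10*, which gives the immunoproteasome and alters the peptides passed on to HLA class I molecules. When proteasome activity is low, the transcription factor NRF1, encoded by *NFE2L1*, raises the subunit genes together.

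In the arrays, *ELOVL5* fell by 1.66 on the log2 scale in its own knockdown (limma, adjusted p = 8.71e-05) and *IGFBP6* fell by 0.62 in its own (adjusted p = 0.00183). Their control means were 11.29 and 6.12. That of *IGFBP6* is near the median of all values, 5.02, where background compresses changes, so the 2 falls are not on a like footing. The fall of *IGFBP6* was under 1.5 times without IGFBP6 replicate 2 or without LUC replicate 2. Arrays of a group correlated at 0.99 or more over all transcript clusters. Of the markers that the line should express, *VIM*, *AXL*, *CD44* and *CAV1* had means from 12.94 to 15.12, while *SPARC* lay at 5.22, near the median of all values, 5.02. Of those that it should lack, *ESR1* and *PGR* lay below that median at 4.65 and 4.11, while *GATA3* and *EPCAM* lay above it at 6.90 and 7.81. Markers of other cells (*PTPRC*, *CD3E*, *PECAM1*, *CDH5*, *VWF*, *DES*, *ALB*) lay below that median as a mean of the 9 arrays, *COL1A1* and *ACTA2* lay at 5.08 and 5.55, and *CD68*, a lysosomal gene, lay at 12.99. Within groups, LUC replicate 2 was the lowest control array for 31 of 45 members. ELOVL5 replicate 2 and IGFBP6 replicate 2 were the highest of their groups for 32 and 36. The median deviation of the members from their group mean was -0.1, 0.067 and 0.113 on these arrays. Over 10848 genes with a mean of at least 6 it was -0.003, 0.023 and 0.09. The shift of IGFBP6 replicate 2 was thus seen in expressed genes at large.

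Of the 45 members, 43 had a log2 value of at least 6 in at least 3 arrays. The others were *PSMA8*, a testis form of an alpha subunit, and *PSMB11*, the catalytic subunit of the thymus cortex, which lay below 5.02 on every array. A named pseudogene exists in the gene table for 20 of the members, so probes of these genes may also read related transcripts.

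Over the family, no member passed the test in the knockdown of *ELOVL5*, and in the knockdown of *IGFBP6* members moved in both directions around a median close to 0. A gene is called here at an adjusted p under 0.05 (limma, Benjamini-Hochberg over 67528 transcript clusters) and a change of at least 1.5 times, and it passed where the adjusted p alone met the threshold. Against the control, the knockdown of *ELOVL5* had 0 members called where 1.36% of all genes were called, and the knockdown of *IGFBP6* had 7 of 45 (15.6%) where 16.3% of all genes were called. Of these 7, 1 was higher and 6 were lower, beside 7.82% and 8.49% of all genes. Because nearly all members are well expressed, the share of genes with a mean of at least 6 is also given: it was 2.35% in the knockdown of *ELOVL5* and 29.5% in that of *IGFBP6*. At any fold, 18 members (40%) passed in the knockdown of *IGFBP6*, 7 higher and 11 lower, beside 26.6% of all genes (12.9% higher, 13.7% lower) and 46.2% of those with a mean of at least 6. The median change of the members was -0.01 and that of all genes -0.01. The quartiles of the members were -0.29 and 0.26, and those of genes with a mean of at least 6 were -0.37 and 0.32.

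**Figure D1:**
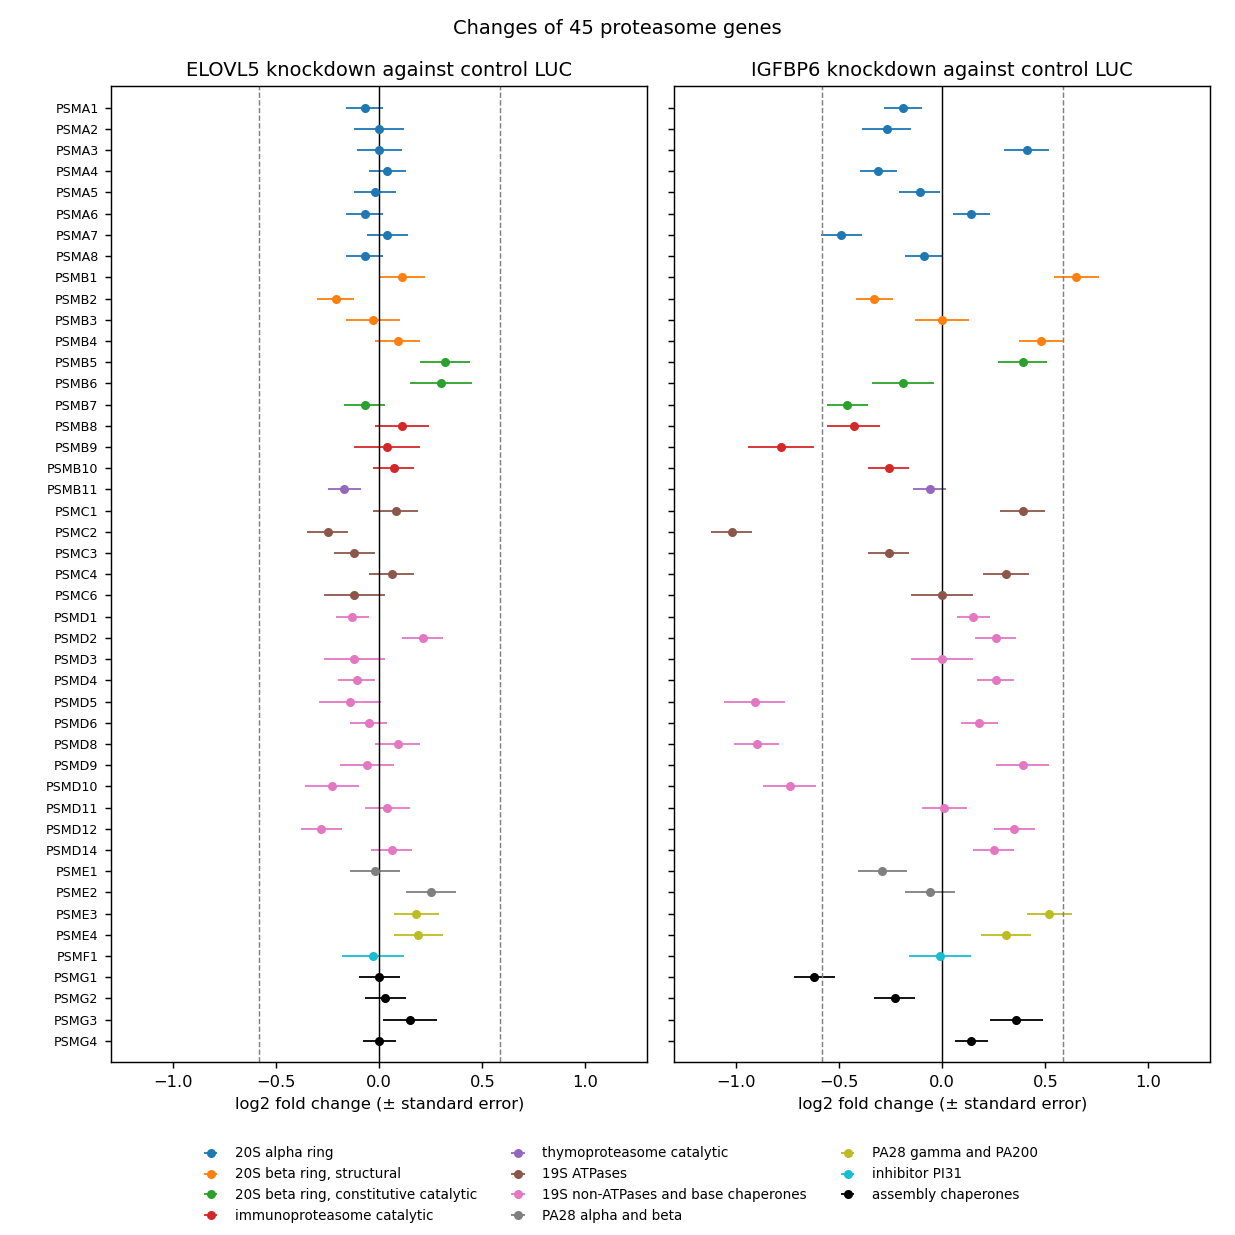
Log2 fold change with its standard error (horizontal axis) of each of the 45 proteasome genes in the knockdown of *ELOVL5* (left) and of *IGFBP6* (right) against the control, 3 arrays per group, coloured by class, with dashed lines at a change of 1.5 times. On the left all genes lie between -0.28 and 0.32, and on the right they spread from -1.02 to 0.65.

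A few promoters are shown first: that of *PSMB9*, the immunoproteasome gene that fell most, with that of *TAP1* beside it, that of *PSMB10* as the immunoproteasome gene outside the HLA region, and those of *PSMC2*, *PSMD5* and *PSMD8* as the 19S genes with the largest falls. Each is the 250 bases before an annotated start (RefSeq, GRCh38.p14), 5′ to 3′ on the strand of the gene. Capitals mark matches to an interferon regulatory factor (IRF) element, GAAA, any 2 bases and GAAA, or to an ETS element, CCGGAAG, on either strand. *PSMB9* is on the plus strand (chr6:32853942-32854191) and *TAP1*, the transporter that carries peptides into the endoplasmic reticulum, on the minus strand (chr6:32853705-32853954), with starts 488 bases apart, so that these windows share 13 bases and together span the stretch between the starts. *PSMB10* is on the minus strand (chr16:67936851-67937100), *PSMC2* on the plus strand (chr7:103347393-103347642), *PSMD5* on the minus strand (chr9:120842923-120843172) and *PSMD8* on the plus strand (chr19:38374321-38374570).
PSMB9: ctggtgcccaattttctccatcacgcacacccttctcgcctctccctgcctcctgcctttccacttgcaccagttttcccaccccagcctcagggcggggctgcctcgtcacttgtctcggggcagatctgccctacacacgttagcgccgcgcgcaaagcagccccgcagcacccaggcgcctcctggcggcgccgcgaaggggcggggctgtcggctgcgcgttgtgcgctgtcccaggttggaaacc
TAP1: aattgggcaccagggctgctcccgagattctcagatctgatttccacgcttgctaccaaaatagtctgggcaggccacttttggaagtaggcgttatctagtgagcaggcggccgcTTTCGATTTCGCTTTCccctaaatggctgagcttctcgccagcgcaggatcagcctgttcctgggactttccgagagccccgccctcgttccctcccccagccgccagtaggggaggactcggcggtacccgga
PSMB10: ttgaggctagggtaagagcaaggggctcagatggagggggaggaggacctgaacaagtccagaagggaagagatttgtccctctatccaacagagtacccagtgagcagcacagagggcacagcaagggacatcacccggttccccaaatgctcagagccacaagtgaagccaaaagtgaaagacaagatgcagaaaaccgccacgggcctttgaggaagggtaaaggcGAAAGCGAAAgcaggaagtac
PSMC2: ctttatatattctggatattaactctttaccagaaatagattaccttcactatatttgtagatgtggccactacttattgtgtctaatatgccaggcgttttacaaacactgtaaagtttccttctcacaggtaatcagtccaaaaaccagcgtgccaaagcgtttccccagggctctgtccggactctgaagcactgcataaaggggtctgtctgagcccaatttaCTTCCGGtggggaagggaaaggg
PSMD5: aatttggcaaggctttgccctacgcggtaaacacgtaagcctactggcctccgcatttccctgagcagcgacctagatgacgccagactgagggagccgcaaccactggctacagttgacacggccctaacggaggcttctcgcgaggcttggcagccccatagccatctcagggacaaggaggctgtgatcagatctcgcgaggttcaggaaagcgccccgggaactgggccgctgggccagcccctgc
PSMD8: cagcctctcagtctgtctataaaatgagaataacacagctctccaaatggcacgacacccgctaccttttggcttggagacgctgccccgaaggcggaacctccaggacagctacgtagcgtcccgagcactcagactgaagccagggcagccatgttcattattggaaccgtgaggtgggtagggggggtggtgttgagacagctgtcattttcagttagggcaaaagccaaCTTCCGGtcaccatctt
The *TAP1* window shown held 2 overlapping IRF matches and the *PSMB10* window 1, while the letters did not occur in the *PSMB9* window. *TAP1* has another annotated start, 1431 bases from that of *PSMB9*, whose window is not shown. That window shared 0 bases with the *PSMB9* window and held 0 IRF matches and 1 ETS match. *PSMC2* and *PSMD8* each held 1 ETS match close to the start, and the *PSMD5* window held 0. A window was at hand for 39 of the 45 members, and over these the IRF letters occurred in 5 genes (12.8%; *PSMA4*, *PSMB4*, *PSMB10*, *PSME2* and *PSMG4*), beside 3.71% of all 27305 genes with a window. The ETS letters occurred in 10 members (25.6%), beside 10.2% of all genes. Antioxidant-type letters, TGACNNNGC or TGAGNNNGC, which NRF1 and its relatives can bind, occurred in 18 members (46.2%), beside 28.1% of all genes. These are matches of letters only, and windows of genes with several starts count once per gene if any window matched. The 27305 genes were not limited to expressed genes, while nearly all members are expressed. The shares are therefore not matched and do not single out proteasome promoters.

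The catalytic subunits were compared to see how the transcripts of the constitutive proteasome and of the immunoproteasome stood in each knockdown. Of the 3 immunoproteasome subunits, 2 fell in the knockdown of *IGFBP6*, *PSMB9* by 0.78 and *PSMB8* by 0.43 on the log2 scale, and the constitutive subunits split, *PSMB5* higher and *PSMB7* lower. The passes of *PSMB8* and *PSMB5* were lost under several alternatives. None of the 6 passed in the knockdown of *ELOVL5*.

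*PSMB9*, the immunoproteasome counterpart of *PSMB6*, lay at 6.70, 7.05 and 6.33 in the control arrays, at 6.73, 6.84 and 6.62 in the knockdown of *ELOVL5*, and at 5.82, 6.09 and 5.83 in that of *IGFBP6*. The 3 IGFBP6 arrays were below the other 6, and the control arrays were widely spread (SD 0.36). The fall against the control was 1.72-fold (log2 fold change -0.78, SE 0.16, limma, adjusted p = 0.00756), and it was called under each of the alternatives run, at an adjusted p of up to 0.048. It was 1.76-fold lower than in the knockdown of *ELOVL5* (a difference of -0.82, adjusted p = 0.00709). In the knockdown of *IGFBP6*, *PTPRC*, a leukocyte marker, also fell by 0.77 (limma, adjusted p = 0.000408). It went from 5.29, 5.46 and 5.10 in the control to 4.58, 4.46 and 4.50, around the median of all values. In the knockdown of *ELOVL5*, where *PSMB9* was at 0.04 (adjusted p = 0.975), *PTPRC* lay at 4.72, 4.76 and 4.82. That was a fall of 0.52 (limma, adjusted p = 0.0444, and 0.129 without moderation). Of the 10 analysed markers of other cells, 1 passed lower and 1, *CD68*, higher in the knockdown of *IGFBP6*. Their part in the change of *PSMB9* was not tested.

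*PSMB8*, the counterpart of *PSMB5*, lay at 6.95, 7.09 and 6.79 in the control, at 7.06, 7.19 and 6.90 in the knockdown of *ELOVL5*, and at 6.32, 6.70 and 6.53 in that of *IGFBP6*. The IGFBP6 arrays were again the lowest, without overlap. The change against the control was -0.43 (SE 0.13, limma, adjusted p = 0.0415), close to the threshold, and without moderation of the variances the adjusted p was 0.0999. It also did not pass with an intensity trend, with median centring, in the fit of 2 groups or without most single arrays (adjusted p up to 0.147). Against the knockdown of *ELOVL5* it was -0.53 (adjusted p = 0.0165; 0.0572 without moderation).

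*PSMB8* and *PSMB9* lie in the HLA region, and the array carries 8 transcript clusters for each, one for each of several versions of that region. Over these, the change in the knockdown of *IGFBP6* against the control ran from -0.46 to -0.43 for *PSMB8* and from -0.78 to -0.73 for *PSMB9*. The clusters read nearly the same sequence and are no independent measurements.

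*PSMB10*, the counterpart of *PSMB7*, is encoded on another chromosome. It lay at 6.37, 6.29 and 6.04 in the control, at 6.32, 6.29 and 6.30 in the knockdown of *ELOVL5*, and at 5.97, 5.94 and 6.0 in that of *IGFBP6*. The IGFBP6 arrays were the lowest, close under the lowest control array. The change against the control was -0.26 (SE 0.10, limma, adjusted p = 0.0992) and did not pass; against the knockdown of *ELOVL5* it was -0.33 (adjusted p = 0.0429; 0.0559 without moderation).

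*PSMB5*, which carries the chymotrypsin-like activity, lay at 12.18, 11.91 and 11.95 in the control, at 12.27, 12.36 and 12.36 in the knockdown of *ELOVL5*, and at 12.38, 12.61 and 12.23 in that of *IGFBP6*. Both knockdowns lay above the control without overlap. The rise in the knockdown of *IGFBP6* was 0.39 (SE 0.12, limma, adjusted p = 0.0402, and 0.0847 without moderation). It also did not pass with the replicate block, median centring or array weights, in the fit of 2 groups or without most single arrays (adjusted p up to 0.137). The difference in the knockdown of *ELOVL5* was 0.32 (SE 0.12, adjusted p = 0.309).

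*PSMB6*, which carries the caspase-like activity, lay at 12.36, 12.30 and 12.04 in the control, at 12.34, 12.68 and 12.57 in the knockdown of *ELOVL5*, and at 11.95, 12.36 and 11.83 in that of *IGFBP6*. The groups overlapped with the control, and neither difference passed (0.30 with adjusted p = 0.527, and -0.19 with adjusted p = 0.525, limma). *PSMB7*, which carries the trypsin-like activity, lay at 12.45, 12.26 and 12.58 in the control, at 12.40, 12.30 and 12.37 in the knockdown of *ELOVL5*, and at 11.91, 12.06 and 11.95 in that of *IGFBP6*. The IGFBP6 arrays were the lowest, and *PSMB7* fell by 0.46 (SE 0.10, limma, adjusted p = 0.00884).

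**Figure D2:**
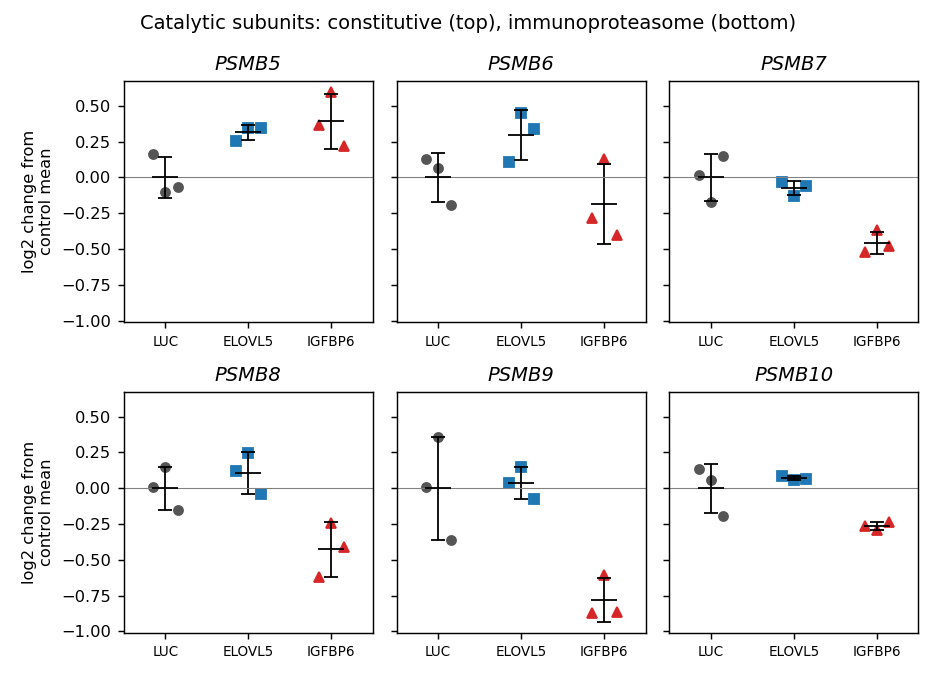
Log2 change from the control mean (vertical axis) of the constitutive (top) and immunoproteasome (bottom) catalytic subunits in each array, by group, with the mean and SD of 3 arrays as bars. For *PSMB8*, *PSMB9* and *PSMB10* the IGFBP6 arrays lie below the control arrays, and for *PSMB5* above them.

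Each immunoproteasome subunit was then set against its counterpart within the same array, as the difference of the log2 values relative to the control mean. For *PSMB8* over *PSMB5* the control arrays lay at -0.16, 0.25 and -0.09 and the IGFBP6 arrays at -0.99, -0.84 and -0.63 (mean -0.82 ± 0.18, SD, n = 3). The groups did not overlap. For *PSMB9* over *PSMB6* the control arrays lay at -0.12, 0.29 and -0.17 and the IGFBP6 arrays at -0.59, -0.73 and -0.46 (mean -0.59 ± 0.14, SD, n = 3), again without overlap. For *PSMB10* over *PSMB7* the control arrays lay at 0.12, 0.23 and -0.34 and the IGFBP6 arrays at 0.26, 0.08 and 0.25 (mean 0.19 ± 0.10, SD, n = 3). Here the groups overlapped, since *PSMB7* fell as well. In the knockdown of *ELOVL5* the mean relative differences were -0.21 ± 0.16, -0.26 ± 0.17 and 0.14 ± 0.04 in the same order (SD, n = 3), each overlapping the control. These differences are given as a description, without a test. *PSMB11* lay between 4.51 and 4.83 on all 9 arrays.

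Of the 12 other core subunits, the alpha ring (*PSMA1* to *PSMA8*) forms the gate of the barrel and the structural beta subunits (*PSMB1* to *PSMB4*) complete the inner rings. The alpha genes had a median change of -0.15 in the knockdown of *IGFBP6*, with *PSMA3* higher (0.41, adjusted p = 0.0237, limma) and *PSMA7* (-0.49, adjusted p = 0.00624) and *PSMA4* (-0.31, adjusted p = 0.0304) lower. *PSMA7* passed under each alternative on the gene's own values, *PSMA3* did not without moderation (adjusted p = 0.0504) or in the fit of 2 groups, and *PSMA4* did not with median centring or without any 1 of several arrays (adjusted p up to 0.101). The smallest change among them was that of *PSMA8*, -0.09, and the remaining alpha genes lay between -0.27 and 0.14. The 8 alpha genes lay between -0.07 and 0.04 in the knockdown of *ELOVL5*.

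*PSMB1* was the one member called higher. It lay at 10.12, 9.86 and 10.11 in the control, at 10.23, 10.10 and 10.09 in the knockdown of *ELOVL5*, and at 10.54, 10.83 and 10.68 in that of *IGFBP6*. The IGFBP6 arrays were above all others, 1.57-fold higher than the control (log2 fold change 0.65, SE 0.11, limma, adjusted p = 0.00174); without IGFBP6 replicate 2 the change was 0.58 and without LUC replicate 2 it was 0.57, just under 1.5 times, with the adjusted p still below the threshold. *PSMB4* rose by 0.48 (adjusted p = 0.0146, up to 0.0616 under the alternatives), and *PSMB3* was at 0.00. *PSMB2* fell by 0.33 (adjusted p = 0.0337), which did not pass under several alternatives, among them the replicate block, median centring and the fit of 2 groups (adjusted p up to 0.118).

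The largest fall of the family was in the 19S cap. *PSMC2*, 1 of the ATPases of the ring that unfolds substrates, lay at 14.55, 14.35 and 14.36 in the control, at 14.04, 14.24 and 14.22 in the knockdown of *ELOVL5*, and at 13.43, 13.45 and 13.33 in that of *IGFBP6*. The groups were ordered without overlap, with the IGFBP6 arrays far below. The fall was 2.02-fold (log2 fold change -1.02, SE 0.10, limma, adjusted p = 3.98e-05) and was called under each of the alternatives run, at an adjusted p of up to 0.000924. The difference in the knockdown of *ELOVL5*, -0.25, did not pass (adjusted p = 0.33), and the knockdowns differed from each other by -0.76 (adjusted p = 0.000403). Among the other ATPases *PSMC1* rose by 0.39 (adjusted p = 0.0354; 0.0737 without moderation, up to 0.12 under the alternatives), *PSMC4* lay at 0.31 and *PSMC3* at -0.26 without passing, and *PSMC6* was at 0.00. The ATPases are subunits of 1 ring, and the changes of the 5 analysed here ran from -1.02 to 0.39.

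Of the 12 PSMD genes, which encode non-ATPase subunits of the cap and chaperones of its base, 3 were called lower in the knockdown of *IGFBP6* and 1 rose at a smaller fold. *PSMD8*, a subunit of the lid, lay at 12.26, 12.21 and 12.47 in the control, at 12.34, 12.44 and 12.44 in the knockdown of *ELOVL5*, and at 11.25, 11.58 and 11.42 in that of *IGFBP6*. The IGFBP6 arrays lay well below the other 6. The fall was 1.86-fold against the control (log2 fold change -0.90, SE 0.11, limma, adjusted p = 0.000227) and 1.99-fold against the knockdown of *ELOVL5* (a difference of -0.99, adjusted p = 0.00018).

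*PSMD5* and *PSMD10* encode chaperones that hold ATPases during assembly of the base and are not part of the finished cap. *PSMD5* lay at 12.77, 12.59 and 12.62 in the control, at 12.14, 12.74 and 12.68 in the knockdown of *ELOVL5*, and at 11.76, 11.88 and 11.62 in that of *IGFBP6*. The IGFBP6 arrays were the lowest, and ELOVL5 replicate 1 lay between them and the rest. The fall was 1.87-fold (log2 fold change -0.91, SE 0.15, limma, adjusted p = 0.00189).

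*PSMD10*, also known as gankyrin, lay at 10.81, 10.98 and 10.72 in the control, at 10.36, 10.72 and 10.75 in the knockdown of *ELOVL5*, and at 9.89, 10.23 and 10.16 in that of *IGFBP6*. Its fall was 1.67-fold (log2 fold change -0.74, SE 0.13, limma, adjusted p = 0.003), again with no overlap. *PSMD9*, the remaining base chaperone among the members, lay at 0.39 and did not pass (adjusted p = 0.0732).

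*PSMD12*, a lid subunit, lay at 12.66, 12.44 and 12.79 in the control, at 12.34, 12.36 and 12.35 in the knockdown of *ELOVL5*, and at 13.00, 12.91 and 13.02 in that of *IGFBP6*. The control arrays lay between the knockdowns, which stood apart on either side. The rise in the knockdown of *IGFBP6* was 0.35 (limma, adjusted p = 0.0363; 0.0532 without moderation), the difference in that of *ELOVL5* was -0.28 (adjusted p = 0.293), and the knockdowns differed 1.54-fold (log2 fold change 0.63, adjusted p = 0.00175). The other PSMD genes, among them *PSMD14*, the deubiquitinase of the lid, and *PSMD4*, a ubiquitin receptor, lay between 0.00 and 0.26 without passing. The median of the 12 was 0.17, although those called were all lower.

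**Figure D3:**
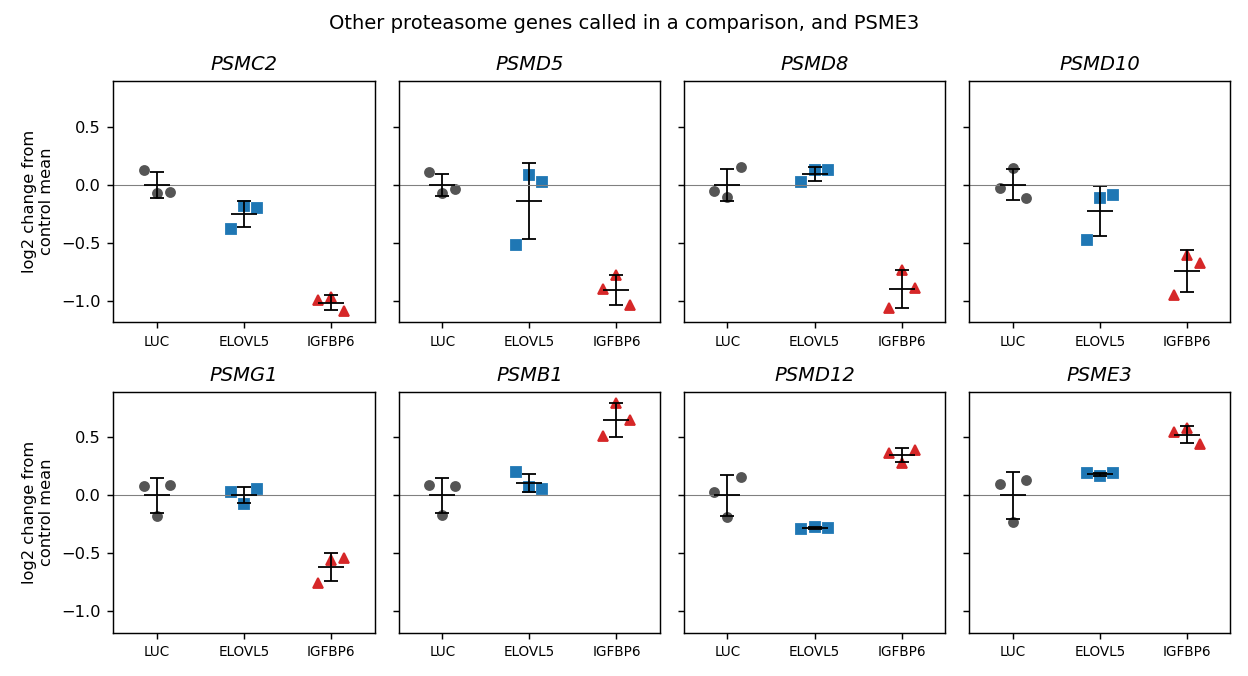
Log2 change from the control mean (vertical axis) in each array for the members called in any comparison other than *PSMB9*, and for *PSME3*, with the mean and SD of 3 arrays per group as bars. In *PSMC2*, *PSMD5*, *PSMD8*, *PSMD10* and *PSMG1* the IGFBP6 arrays lie below every other array, and in *PSMB1*, *PSMD12* and *PSME3* above every other array.

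Of the 4 genes of activators that can replace the 19S cap, only *PSME3* passed, in the knockdown of *IGFBP6*. *PSME1* and *PSME2*, the interferon-inducible subunits of PA28, did not pass in either knockdown. *PSME1* lay at 12.21, 12.48 and 12.21 in the control, at 12.22, 12.44 and 12.19 in the knockdown of *ELOVL5*, and at 11.83, 12.20 and 12.01 in that of *IGFBP6* (log2 fold change -0.29 for the latter, SE 0.12, limma, adjusted p = 0.169). *PSME2* lay at 11.17, 11.35 and 11.16 in the control, at 11.34, 11.67 and 11.41 in the knockdown of *ELOVL5*, and at 11.12, 11.33 and 11.05 in that of *IGFBP6* (log2 fold change -0.06, SE 0.12, adjusted p = 0.83). The IGFBP6 arrays lay just under the control arrays for *PSME1* and overlapped them for *PSME2*. *PSME3*, the nuclear PA28 gamma, rose by 0.52 in the knockdown of *IGFBP6* (adjusted p = 0.00603), 1.44-fold and so below the call, and *PSME4*, the nuclear activator PA200, lay at 0.31 (adjusted p = 0.133). *PSMF1*, the regulator PI31, was at -0.01.

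Of the 4 chaperones that build the 20S core, *PSMG1* fell. It lay at 11.38, 11.12 and 11.39 in the control, at 11.33, 11.22 and 11.35 in the knockdown of *ELOVL5*, and at 10.54, 10.74 and 10.76 in that of *IGFBP6*. The IGFBP6 arrays did not reach the others, with a fall of 1.53-fold (log2 fold change -0.62, SE 0.10, limma, adjusted p = 0.00203). The change was under 1.5 times without IGFBP6 replicate 1 (-0.55), without LUC replicate 1 (-0.57), without LUC replicate 3 (-0.57) and with array weights (-0.56). *PSMG2*, the partner with which it forms a dimer, lay at -0.23 and *PSMG3* at 0.36, neither past the test, and *PSMG4* at 0.14.

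Against the control, 0 of 45 members passed at any fold in the knockdown of *ELOVL5*, beside 1.74% of all genes and 3.01% of those with a mean of at least 6. At an unadjusted p under 0.05 there were 3 members (*PSMB5* at 0.32, *PSMC2* at -0.25 and *PSMD12* at -0.28), or 6.67%, beside 13.2% of all genes, and limma without moderation also passed 0. The arrays of the groups did not overlap for 6 members (13.3%), beside 23.7% of all genes. All members lay between -0.28 and 0.32 with a median of 0.00. A p that misses the threshold does not show that a member was unchanged, and differences of up to 0.32 were among those that missed it.

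The knockdowns were also compared with each other. Against the knockdown of *ELOVL5*, that of *IGFBP6* had 6 members called (13.3%), beside 13.1% of all genes and 24.2% of those with a mean of at least 6: *PSMD12* was higher (6.5% of all genes), and *PSMB9*, *PSMC2*, *PSMD5*, *PSMD8* and *PSMG1* were lower (6.64% of all genes). At any fold 18 members passed (40%), 7 higher and 11 lower, beside 22.7% of all genes (11.4% higher, 11.3% lower) and 39.6% of those with a mean of at least 6. With arrays centred on their medians instead, the split was 2 higher and 11 lower, and with quantile normalization it was 10 higher and 11 lower. The 3 immunoproteasome subunits all passed lower in this comparison; without moderation *PSMB8* and *PSMB10* did not (adjusted p = 0.0572 and 0.0559), and *PSMB10* also lost its pass with the replicate block and without most single arrays (adjusted p up to 0.123). Among their counterparts *PSMB7* passed lower (-0.38, adjusted p = 0.0258, limma; up to 0.0906 without single arrays). Since the comparison uses the same IGFBP6 arrays as the one against the control, it is no second observation of them. Arrays of the knockdown of *IGFBP6* and of the control did not overlap for 27 members (60%), beside 37.7% of all genes, and between the knockdowns 29 members (64.4%) did not overlap, beside 39.8%. Overlap was not counted for genes with a mean of at least 6 in any comparison. Nearly all members are well expressed, so these shares cannot tell whether the members differed from other expressed genes.

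Many genes of one chromosomal stretch moved together in the knockdown of *IGFBP6*, so each member was set beside the median of its 40 nearest expressed protein-coding genes on the chromosome. Across the 45 members the change of the gene and of its neighbours correlated at r = 0.611 (Spearman 0.641) in the knockdown of *IGFBP6* and at r = 0.0198 (Spearman 0.0704) in that of *ELOVL5*. Across 10742 genes with a mean of at least 6 the same correlations were 0.296 and 0.142. These are descriptions across genes, which share arrays and partly neighbours. The neighbours of the members ran from -0.76, around *PSMG1* on chromosome 21, to 0.69, around *PSMC1* on chromosome 14, and had the sign of the member for 33 of 45.

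Members differed in how far they moved with their surroundings. *PSMG1* (-0.62, neighbours -0.76) and *PSMB7* (-0.46, neighbours -0.40) were close to their surroundings, and *PSMB1* (0.65, neighbours 0.40) was not distinguished from them (difference 0.25, limma on the differences, adjusted p = 0.141). *PSMB9* was 0.88 below its neighbours (adjusted p = 0.000364), which lay at 0.11, and *PSMB8* 0.54 below (adjusted p = 0.00357). *PSMC2* was 0.81 below its neighbours (adjusted p = 0.000533), which lay at -0.21. *PSMD5*, *PSMD8* and *PSMD10* were 0.56, 0.55 and 0.35 below theirs (adjusted p = 0.00985, 0.00162 and 0.0304). Their neighbours were lower as well, at -0.35, -0.35 and -0.40, so part of each fall was shared with the surroundings. *PSMB10*, which did not pass against the control, lay in a stretch with a median of -0.46 and differed from it by 0.20 (adjusted p = 0.24). By the same call rule against neighbours, 4 members were called, beside 21.8% of all genes: *PSMB9*, *PSMC2* and *PSMB2* lower, and *PSMC4* higher (0.64, adjusted p = 0.000411).

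**Figure D4:**
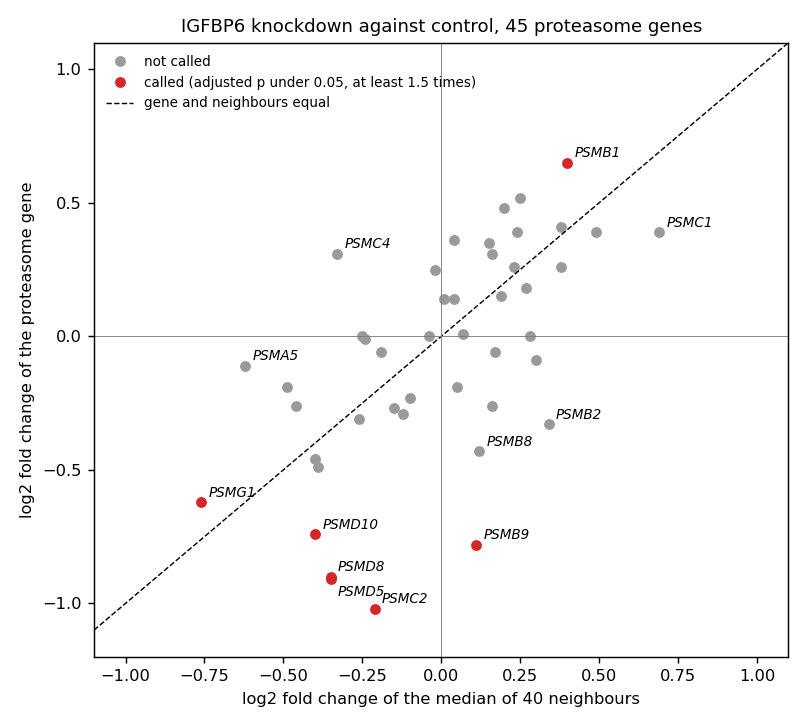
Log2 fold change of each of the 45 proteasome genes (vertical axis) against that of the median of its 40 nearest expressed genes (horizontal axis) in the knockdown of *IGFBP6* against the control, with red points for called genes and a dashed line where gene and neighbours are equal. *PSMG1* lies near the line, and *PSMB9* and *PSMC2* lie 0.88 and 0.81 below it.

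The genes that work with the proteasome or control it were taken from 5 lists. None of their genes passed in the knockdown of *ELOVL5*. At an unadjusted p under 0.05 (limma) there was 1 gene each among the partners and the interferon genes. In the knockdown of *IGFBP6*, 2 of 16 analysed partners passed higher and 8 lower, beside the 12.9% and 13.7% of all genes given above and 46.2% in either direction of genes with a mean of at least 6; the same shares stand beside the lists that follow. *ECPAS*, an adaptor that binds the 19S cap, lay at 12.26, 12.43 and 12.58 in the control, at 12.26, 12.19 and 12.23 in the knockdown of *ELOVL5*, and at 10.07, 10.48 and 10.56 in that of *IGFBP6*. The IGFBP6 arrays were far below the others, a fall of 4.15-fold (log2 fold change -2.05, limma, adjusted p = 3.57e-06), with neighbours at -0.65. *UBE3C*, a ubiquitin ligase of the proteasome, fell by 0.92 (adjusted p = 0.000208), with neighbours at -0.54. The shuttle factor *UBQLN2* fell by 0.63 (adjusted p = 0.0038), with neighbours at -0.66. It differed from them by 0.03 (limma on the differences, adjusted p = 0.884). *AKIRIN2*, which takes proteasomes into the nucleus, rose by 0.97 (adjusted p = 0.000482), with neighbours at 0.40. *POMP*, the maturation factor of the 20S core, lay at 0.19 without passing (adjusted p = 0.227).

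Of the 7 analysed genes around NRF1, *NFE2L1* itself rose by 0.49 in the knockdown of *IGFBP6* (limma, adjusted p = 0.00901). It lay at 10.44, 10.53 and 10.38 in the control and at 10.75, 11.14 and 10.92 in that knockdown, without overlap. *VCP*, the ATPase that extracts proteins from membranes and complexes, fell by 0.53 (adjusted p = 0.000926) and its adaptor *NPLOC4* by 0.75 (adjusted p = 0.000645). Of the 3 analysed genes that supply ubiquitin or load it, *UBB*, a ubiquitin gene, fell by 0.47 (adjusted p = 0.00172) and the others did not pass.

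Of 8 analysed genes of the interferon gamma pathway, 3 fell in the knockdown of *IGFBP6* and none rose. Beside them, 13.7% of all genes and 2670 of the 10848 genes with a mean of at least 6 passed lower. *IRF1*, a transcription factor that drives immunoproteasome genes, lay at 6.38, 6.36 and 6.0 in the control and at 5.57, 5.35 and 5.43 in that knockdown (log2 fold change -0.80, limma, adjusted p = 0.000676), with neighbours at -0.28. *NLRC5*, the transactivator of HLA class I genes, lay at 5.56, 5.65 and 5.54 in the control and at 5.30, 4.99 and 5.06 in that knockdown (log2 fold change -0.47, adjusted p = 0.0066), near the median of all values. The neighbours of *NLRC5* lay lower, at -0.86, and the gene differed from them by 0.39 (adjusted p = 0.0842). For both genes these groups did not overlap. *JAK2*, a kinase of the receptor, fell by 0.42 (adjusted p = 0.0164), and the other 5 genes did not pass.

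Of the 10 genes that bring peptides to HLA class I, 6 fell in the knockdown of *IGFBP6* and none rose. Beside them, 13.7% of all genes and 2670 of the 10848 genes with a mean of at least 6 passed lower. *TAP1*, whose promoter window shown above borders that of *PSMB9*, lay at 7.17, 7.71 and 7.49 in the control, at 7.27, 7.34 and 7.09 in the knockdown of *ELOVL5*, and at 6.09, 6.53 and 6.40 in that of *IGFBP6*. As for *PSMB9*, the IGFBP6 arrays were the lowest without overlap, and the fall was 2.17-fold (log2 fold change -1.12, SE 0.16, limma, adjusted p = 0.000552). *TAP2*, the partner chain of the transporter, was at 0.01 (adjusted p = 0.967). *TAPBP*, which ties the transporter to HLA class I, fell 2.6-fold, *B2M*, the light chain of HLA class I, 2.13-fold, and the peptide-trimming enzyme *ERAP2* 1.87-fold (adjusted p = 5.73e-05, 0.000362 and 0.000149). The medians over these 10 genes were -0.56 in the knockdown of *IGFBP6* and 0.01 in that of *ELOVL5*, beside -0.01 and -0.02 over all genes.

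**Figure D5:**
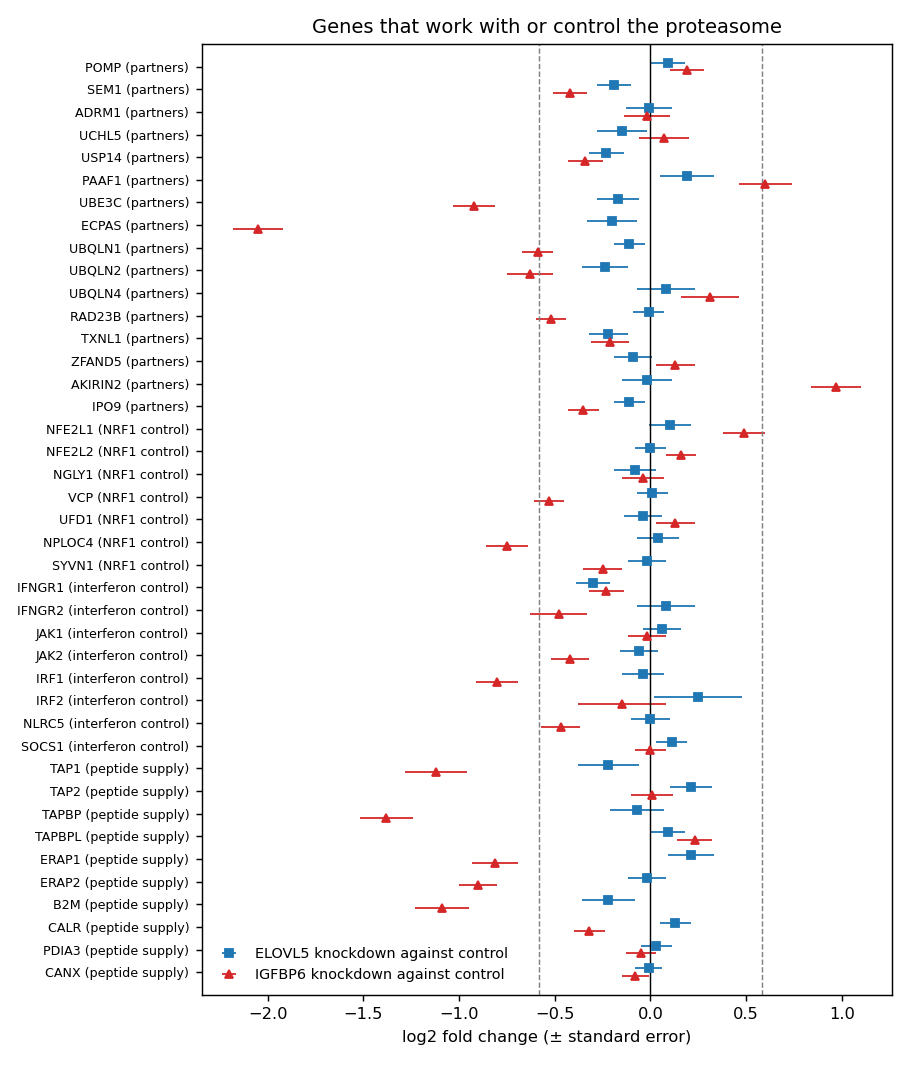
Log2 fold change with its standard error (horizontal axis) of the analysed partners, NRF1 genes, interferon genes and peptide-supply genes in the knockdown of *ELOVL5* (blue squares) and of *IGFBP6* (red triangles) against the control, 3 arrays per group, with dashed lines at a change of 1.5 times. No gene reaches the dashed lines in the knockdown of *ELOVL5*, and *ECPAS* lies at -2.05 in that of *IGFBP6*.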

How the data were processed

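Total RNA of 3 MDA-MB-231 cultures was measured with 3 arrays per culture. The authors normalized the deposited log2 intensities with RMA in Transcriptome Analysis Console 4.0.0.25, with options not given in the sources used here, so levels hold on that scale and background compresses changes near the median of 5.02. Symbols came from the platform annotation, checked by gene ID for 21497 transcript clusters; for 479 genes with several transcript clusters the one with the highest mean was used. All arrays entered 1 fit in limma 3.58.1 (R 4.3.3; lmFit and eBayes without covariates, 6 residual degrees of freedom, prior 4.04), with the Benjamini-Hochberg adjustment over 67528 transcript clusters, after a test on simulated data. The fit against neighbours used 22107 genes and each gene minus the median of its 40 nearest genes. Chromosomal order, promoters and names came from RefSeq (GRCh38.p14). Values per array are given for the catalytic subunits, *PSME1*, *PSME2* and every called member; other members are given by ranges. *VCP*, *UBB*, *JAK2* and *TAP2* were named after their values were seen. The members and lists were chosen with earlier results of these data known. Alternatives were no moderation, an intensity trend, fits of 2 groups, a replicate block, a filter on dim transcript clusters, quantile normalization, median centring, array weights, adjustment over single symbols, the mean of several transcript clusters, neighbours, a fold of 1.2 and leaving out each array. Transcript clusters with several symbols were not used.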

Additional observations from a re-analysis of the deposited data

How the results depend on the processing

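The alternatives left 0 members called or passing in the knockdown of *ELOVL5*, leaving out any array included. The 7 members called in the knockdown of *IGFBP6* against the control became 4 against neighbours (1 higher, 3 lower), 18 at a fold of 1.2, and 6 to 7 without single arrays; the 18 at any fold became 11 (3 higher, 8 lower) in a fit of the 2 groups alone and 11 to 17 without single arrays, 11 without LUC replicate 2. Against the knockdown of *ELOVL5* the 6 called became 18 at a fold of 1.2 and 6 to 10 without single arrays (10 without IGFBP6 replicate 2), and the 18 at any fold became 9 to 17 (10, 10 and 9 without ELOVL5 replicates 1, 2 and 3). Against its neighbours *PSMG1* turned sign, to 0.14 against the control (adjusted p = 0.409) and 0.02 against the knockdown of *ELOVL5* (adjusted p = 0.928, limma). In the knockdown of *ELOVL5*, *PSMB8* over *PSMB5* and *PSMB9* over *PSMB6* moved to -0.57 and -0.58 against neighbours; the cause was not tested. Without single arrays the median of the immunoproteasome subunits in the knockdown of *IGFBP6* ranged from -0.52 to -0.33, and *PSMB8* over *PSMB5* from -0.92 to -0.70. Deviations of same-numbered arrays correlated at -0.0992 to 0.491, and those of differently numbered arrays at -0.345 to 0.242. These ranges overlap and do not settle whether the numbers are a pairing, and the main fit took them as none. With the replicate number as a block the called members numbered 0, 7 and 6 and those at any fold 0, 15 and 16, in the order of the 3 comparisons. The scalings moved the median of all genes by less than 0.1. With 3 arrays per group and 1 culture per group, the p-values cover the spread between preparations only.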
